A study of Homo sapiens with 12 samples.

Results

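The methionine cycle genes here are a chosen list of 10 genes. Most encode proteins that make S-adenosylmethionine from methionine, use it, or return its homocysteine to methionine or pass it on to cysteine. All 10 were taken by name, as every array probe whose annotated gene is MAT2A, MAT2B, MAT1A, AHCY, AHCYL1, MTR, MTRR, CBS, BHMT or GNMT. This gave 14 of the 48803 probes on the array, for 10 of 18852 named genes, with 8 genes measured by 1 probe and 2 genes (MAT2B and MTRR) by 3. MAT2A was selected on its measured difference between the groups, one of the largest rises on these arrays, so its values are described without a test, whereas the other 9 genes were taken for their function. RNA came from HepG2, a human hepatoma line that keeps many features of hepatocytes. There were 6 arrays of cultures in high glucose (25 mM) and 6 of cultures in low glucose, labelled 2.7 mM in the sample records and given as 0 mM in the methods of the study. The line was maintained in 25 mM glucose. By the methods all cultures were held in 2.7 mM glucose medium with serum for 16 h and then in the test medium for 8 h, and no array was taken at the start of those 8 h. HepG2 is a tumour line and stands for hepatocytes only in part, and in such bulk RNA fewer cells and less RNA per cell cannot be told apart. A rise or fall below is a difference between these groups of cultures.

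Methionine adenosyltransferase joins methionine and ATP to form S-adenosylmethionine, the methyl donor of nearly all methylation reactions. Each such methyl transfer leaves S-adenosylhomocysteine, which is split to adenosine and homocysteine. Homocysteine is then methylated back to methionine with a folate or a betaine methyl group, or is condensed with serine on the way to cysteine and glutathione. Healthy adult hepatocytes rely on the catalytic subunit encoded by MAT1A, whereas fetal liver, dividing cells and hepatomas rely on that encoded by MAT2A. MAT2A mRNA is known to be under feedback from S-adenosylmethionine, through methylation of the transcript by METTL16 and the splicing of a retained intron.

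Both catalytic subunit genes are shown with the sequence around their start sites, because they encode enzymes of the same reaction and their signals moved by very different amounts. The windows run from 250 bases before to 50 bases after the RefSeq start (GRCh38.p14), for MAT2A at chr2:85538918-85539217 on the plus strand and for MAT1A at chr10:80289609-80289908 on the minus strand. Capitals mark TATAAA and CCAAT, searched on both strands.
MAT2A: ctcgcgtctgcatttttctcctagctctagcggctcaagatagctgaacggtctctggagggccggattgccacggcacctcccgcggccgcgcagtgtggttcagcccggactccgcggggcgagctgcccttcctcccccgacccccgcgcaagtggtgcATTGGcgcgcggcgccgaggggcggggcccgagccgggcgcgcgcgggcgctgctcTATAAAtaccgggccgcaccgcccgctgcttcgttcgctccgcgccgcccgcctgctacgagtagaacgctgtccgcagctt
MAT1A: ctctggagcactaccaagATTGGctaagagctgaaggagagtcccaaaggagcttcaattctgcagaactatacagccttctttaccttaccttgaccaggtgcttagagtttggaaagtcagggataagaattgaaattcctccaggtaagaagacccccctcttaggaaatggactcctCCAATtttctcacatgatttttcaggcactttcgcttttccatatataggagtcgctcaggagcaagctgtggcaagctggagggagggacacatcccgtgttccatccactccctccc
The MAT2A window was 71.0% G and C and that of MAT1A 48.0%, against a median of 58.7% over 35116 such windows. MAT2A had TATAAA at position -32 and CCAAT, read on the minus strand, at position -88. MAT1A held CCAAT on both strands and no TATA motif of these exact letters. Of all windows, 11.5% held TATAAA on either strand and 34.6% held CCAAT on either strand. The palindromic E-box CACGTG, a motif found in elements bound by the glucose-responsive factor ChREBP, was in 7.26% of all windows and in none of the 17 windows found for 9 of the members. Such matches describe the letters of these windows only.

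MAT2A, the catalytic subunit of hepatoma cells, had the second largest rise of all 48803 probes. The intensity of its probe (ILMN_1737298) lay between 12206 and 14930 in high glucose, with a median of 12857, and between 1532 and 2551 in low glucose, with a median of 2337. The groups were far apart, since the dimmest high-glucose array was still several times brighter than the brightest low-glucose array. The means were 13052 ± 994 in high glucose and 2212 ± 364 in low glucose (SD, n = 6 each), a log2 difference, high minus low glucose, of 2.58 or a ratio of 5.97. The spread within the groups was 0.11 in high glucose and 0.27 in low glucose on the log2 scale (SD), and the low-glucose array farthest from its group was replicate 5 at 1532. Among all probes, the largest rise was 2.92 and the third largest 1.80. These values chose MAT2A and carry no test.

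**Figure D1:**
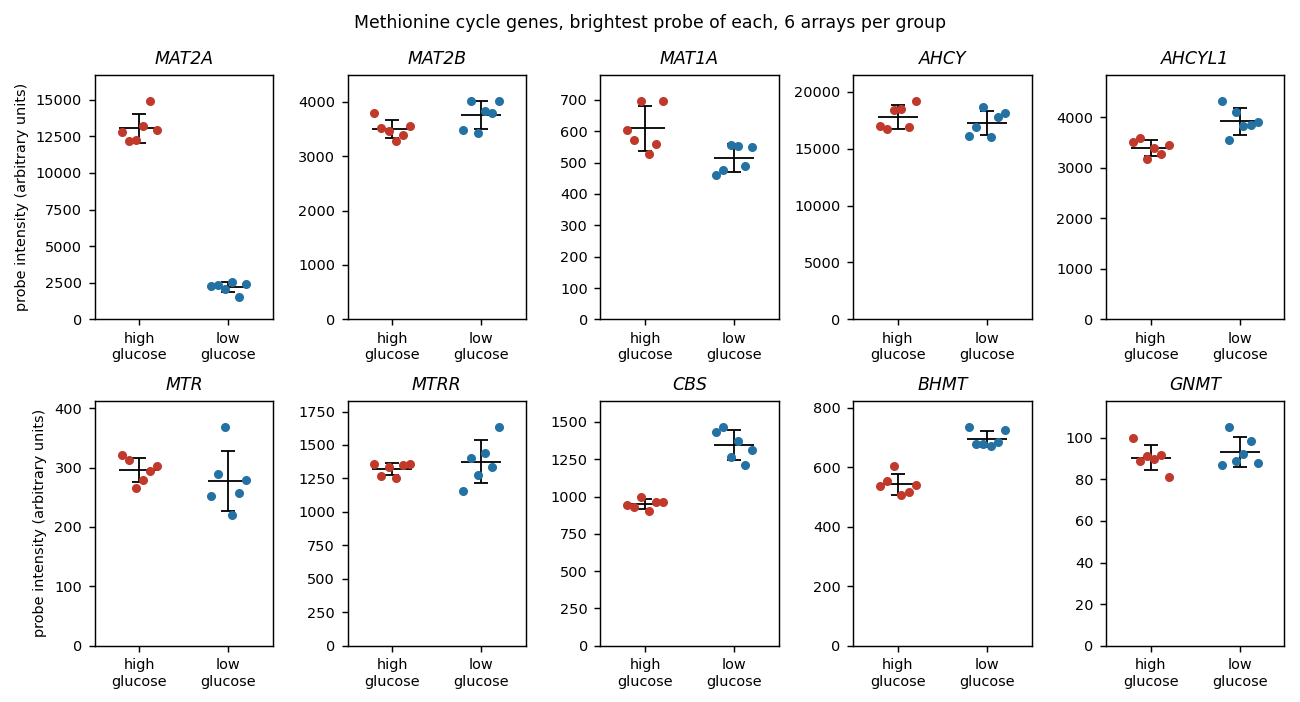
Probe intensity (vertical axes, arbitrary units, linear from 0, a scale of its own in each panel) of the brightest probe of each of the 10 methionine cycle genes, for the 6 high-glucose arrays (left) and the 6 low-glucose arrays (right), with the mean and SD as bars. The MAT2A arrays lie at 12206 or more in high glucose and at 2551 or less in low glucose, and among the brightest probes of the other genes, plotted here, only those of CBS and BHMT have groups that do not overlap.

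The other genes for making S-adenosylmethionine, MAT1A and MAT2B, moved little by their brightest probes. MAT1A, the catalytic subunit of adult liver, ranged from 528 to 697 in high glucose (median 588) and from 460 to 558 in low glucose (median 520.1). The groups overlapped, since the lowest high-glucose array lay below the upper low-glucose arrays. All other high-glucose arrays lay above the low-glucose range. Its mean was 609.7 ± 71.7 in high glucose and 515 ± 43.6 in low glucose (SD, n = 6 each), a log2 difference of 0.24 (standard error 0.08, 95% interval 0.07 to 0.41, adjusted p = 0.041 from limma). This small rise was close to the threshold of 0.05. Without single arrays its adjusted p ranged from 0.021 to 0.13, with the call lost without high-glucose replicate 1, 3 or 6 or low-glucose replicate 1, 2 or 5. The CyberT style test gave an adjusted p of 0.057.

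MAT2B, the regulatory subunit that joins MAT2A in the enzyme known as MAT II, was measured by 3 probes that did not move alike. The brightest (ILMN_1811367) ranged from 3279 to 3787 in high glucose (median 3491) and from 3420.4 to 4016 in low glucose (median 3815). Its groups overlapped, with a log2 difference of -0.10 (95% interval -0.22 to 0.01, adjusted p = 0.29 from limma). A dim probe (ILMN_1673960), annotated to the transcript variant NM_182796, ranged from 162 to 207 in high glucose (median 179) and from 111 to 134 in low glucose (median 119.7). All of its high-glucose arrays were above all low-glucose arrays, with a log2 difference of 0.58 (95% interval 0.42 to 0.74, adjusted p = 2.3e-06 from limma). The remaining probe, like the brightest annotated to NM_013283, had a log2 difference of 0.12 (95% interval -0.06 to 0.29, adjusted p = 0.49 from limma). When the log2 values of the 3 probes were averaged, MAT2B had a log2 difference of 0.20 and passed the test, so its direction depends on the probe.

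The genes that use S-adenosylmethionine and clear its product showed no change near that of MAT2A. GNMT, which encodes the glycine N-methyltransferase that takes up surplus S-adenosylmethionine in liver, ranged from 81.0 to 99.9 in high glucose (median 90.5) and from 86.8 to 105 in low glucose (median 90.5). The groups overlapped (log2 difference -0.04, 95% interval -0.19 to 0.11, adjusted p = 0.82 from limma). The values lie at the median intensity of all probes, 90.8, where a fall may not be detectable. AHCY, the S-adenosylhomocysteine hydrolase, ranged from 16685 to 19208 in high glucose (median 17686) and from 15988 to 18628 in low glucose (median 17355). Its groups overlapped almost wholly, and the log2 difference was 0.04 (95% interval -0.05 to 0.14, adjusted p = 0.69 from limma). AHCYL1 encodes a relative of AHCY, also called IRBIT, that binds the inositol trisphosphate receptor and is not known to split S-adenosylhomocysteine. It ranged from 3168 to 3588 in high glucose (median 3419) and from 3551 to 4328 in low glucose (median 3875). AHCYL1 was lower in high glucose by a small margin (log2 difference -0.21, 95% interval -0.32 to -0.09, adjusted p = 0.0087 from limma), and its groups overlapped at the edge.

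The routes from homocysteine back to methionine were level or lower in high glucose. BHMT, the betaine-homocysteine methyltransferase of liver and kidney, ranged from 506 to 606 in high glucose (median 539) and from 672 to 736 in low glucose (median 682). Its groups did not overlap (log2 difference -0.36, standard error 0.07, 95% interval -0.50 to -0.22, adjusted p = 0.00018 from limma). MTR, the vitamin B12-dependent methionine synthase, ranged from 266 to 321 in high glucose (median 299) and from 219 to 368 in low glucose (median 268). The widest group was that of low glucose, and the log2 difference was 0.11 (95% interval -0.09 to 0.30, adjusted p = 0.59 from limma). MTRR encodes the reductase that returns methionine synthase to its active form, and its 3 probes differed. The brightest (ILMN_1718932) ranged from 1251 to 1356 in high glucose (median 1343) and from 1158 to 1634 in low glucose (median 1366), a log2 difference of -0.05 (95% interval -0.20 to 0.10, adjusted p = 0.77 from limma). The dimmest (ILMN_1702684) ranged from 101.01 to 121 in high glucose (median 107) and from 138 to 211 in low glucose (median 149), with no overlap. That probe had a log2 difference of -0.54 (95% interval -0.73 to -0.35, adjusted p = 7.2e-05 from limma), and the third probe one of -0.27 (95% interval -0.46 to -0.07, adjusted p = 0.056 from limma). With the log2 values of the 3 probes averaged, MTRR had a log2 difference of -0.29 and passed the test.

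CBS, the cystathionine beta-synthase that commits homocysteine to cysteine, had the largest difference among the brightest probes of the other 9 genes. Its intensity ranged from 906 to 994 in high glucose (median 954) and from 1211 to 1466 in low glucose (median 1343). Every high-glucose array was below every low-glucose array (log2 difference -0.50, standard error 0.06, 95% interval -0.63 to -0.37, adjusted p = 1.1e-06 from limma). CBS has a nearly identical copy, CBSL, and the probe may not tell them apart.

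By their brightest probes, 1 of the 9 genes other than MAT2A was higher in high glucose (MAT1A), 3 were lower (AHCYL1, CBS and BHMT) and the other 5 did not pass. Over all 18852 genes by the same rule, 15.4% were higher, 12.2% lower and 27.6% changed in either direction at an adjusted p under 0.05 from limma. Among the 11751 genes whose brightest probe exceeded an intensity of 100 on at least 6 arrays, as 13 of the 14 member probes did, the shares were 24.1% higher, 19.0% lower and 43.1% in either direction. With 9 genes, these counts do not set the cycle apart from other genes of like brightness. The median log2 difference of the 9 genes was -0.05, that of all genes 0.01, and no brightest probe among the 9 differed by more than 0.50. Groups did not overlap for 2 of the 9, CBS and BHMT, beside 18.5% of all genes and 29.4% of those over 100, whether or not they passed the test. Counted by probe, 2 of the 13 were higher and 4 lower, beside 8.77% and 7.43% of all 48803 probes (16.2% in either direction, 10.5% with groups that did not overlap).

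**Figure D2:**
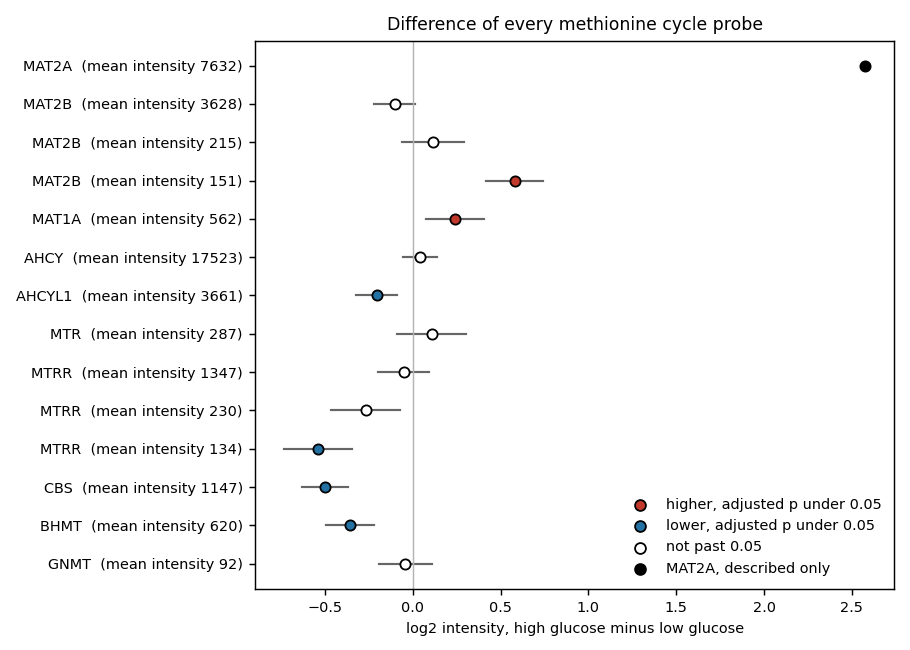
Difference in log2 intensity, high glucose minus low glucose (horizontal axis), of the 14 methionine cycle probes, each labelled with its gene and its mean intensity over the 12 arrays, with 95% intervals from limma except for MAT2A. Red and blue mark probes higher and lower at an adjusted p under 0.05, and MAT2A at 2.58 stands apart from the others, which lie between -0.54 and 0.58.

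The genes around the cycle were taken from 10 lists covering the pathways that feed it or draw on it, of which 124 of 132 genes had a named probe. By the brightest probe of each, 32 were higher in high glucose (25.8%), 21 were lower (16.9%) and the remaining 71 did not pass. These shares lie near those of bright genes at large, 24.1% and 19.0%. Sulfur metabolism beyond CBS held the widest contrast, with 2 of 8 measured genes higher, 2 lower and 4 not passing, and a median log2 difference of 0.13. CTH, cystathionine gamma-lyase, which follows CBS and releases cysteine, ranged from 662 to 812 in high glucose (median 744) and from 1945 to 2579.6 in low glucose (median 2149). All low-glucose arrays lay far above the brightest high-glucose array. The log2 difference was -1.56 (95% interval -1.71 to -1.42, adjusted p = 4.5e-15 from limma), and the other 2 CTH probes had differences of -1.35 and -1.06. SUOX, the mitochondrial sulfite oxidase at the end of cysteine breakdown, ranged from 1918 to 2175 in high glucose (median 2004) and from 764 to 914 in low glucose (median 836). All 6 high-glucose arrays were above the low-glucose range (log2 difference 1.27, 95% interval 1.14 to 1.41, adjusted p = 4.5e-14 from limma), its next probe had a difference of 1.22 and a dim probe one of 0.07. TST, the thiosulfate sulfurtransferase, rose by 0.31 (adjusted p = 1.8e-05 from limma). MPST, the mercaptopyruvate sulfurtransferase, fell by 0.33 on the log2 scale (adjusted p = 0.00048 from limma). Its dimmer probe narrowly did not pass (-0.24, adjusted p = 0.052 from limma).

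Of 18 measured folate genes, which carry the methyl group used by MTR, 7 were higher and 4 lower (median log2 difference 0.13). The shares among bright genes at large were 24.1% higher and 19.0% lower. MTHFD2, the mitochondrial methylene-tetrahydrofolate dehydrogenase, ranged from 1737 to 2116 in high glucose (median 1946) and from 6498 to 7013 in low glucose (median 6744). The low-glucose arrays were tightly grouped and well above the others (log2 difference -1.79, 95% interval -1.90 to -1.68, adjusted p = 1.5e-18 from limma). MTHFD1L, the mitochondrial formate-producing enzyme, had a log2 difference of -0.67 (adjusted p = 2.4e-09 from limma). ALDH1L1, a cytosolic enzyme that removes carbon units from folate as carbon dioxide, had a difference of -0.58 (adjusted p = 8.7e-08). The serine hydroxymethyltransferases, which pass a carbon from serine to folate, moved apart. By their brightest probes, SHMT1, the cytosolic form, ranged from 1764 to 2023 in high glucose (median 1901) and from 957 to 1152 in low glucose (median 1040.2), a log2 difference of 0.86 (adjusted p = 5.8e-11 from limma). SHMT2, the mitochondrial form, ranged from 14399 to 16028 in high glucose (median 14711) and from 16800 to 19652 in low glucose (median 18846), a log2 difference of -0.32 (adjusted p = 2.9e-06 from limma). In neither case did the groups overlap. The other 2 SHMT1 probes had smaller differences, 0.34 (adjusted p = 0.002) and 0.23 (adjusted p = 0.23 from limma).

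The list joining polyamine synthesis with methionine salvage, which rebuilds methionine from the methylthioadenosine that polyamine synthesis leaves, had 3 of 9 measured genes higher and none lower (median log2 difference 0.16). For bright genes at large the shares were 24.1% higher and 19.0% lower. The 3 list genes that rose are salvage genes, but not all salvage genes rose. By their brightest probes APIP (log2 difference 0.12), ENOPH1 (-0.15) and ADI1 (-0.095) did not pass. A dimmer APIP probe did (0.23, adjusted p = 0.023 from limma). MTAP, the phosphorylase of its first step, ranged from 864 to 1039 in high glucose (median 984) and from 568 to 748 in low glucose (median 671), a log2 difference of 0.56 (adjusted p = 2.1e-06 from limma). MRI1, the isomerase of the next step, had a log2 difference of 0.52 (adjusted p = 1.7e-07 from limma), and KYAT1, a transaminase that can close the pathway, one of 0.74 (adjusted p = 2.9e-08 from limma). By these probes the groups did not overlap for any of the 3 genes. A second MRI1 probe had a difference of 0.57. A dimmer MRI1 probe (0.21, adjusted p = 0.063 from limma) and the dimmest (-0.01) did not pass. AMD1, the S-adenosylmethionine decarboxylase that opens the polyamine branch, did not pass the test (log2 difference 0.18, 95% interval 0.05 to 0.31, adjusted p = 0.059 from limma).

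**Figure D3:**
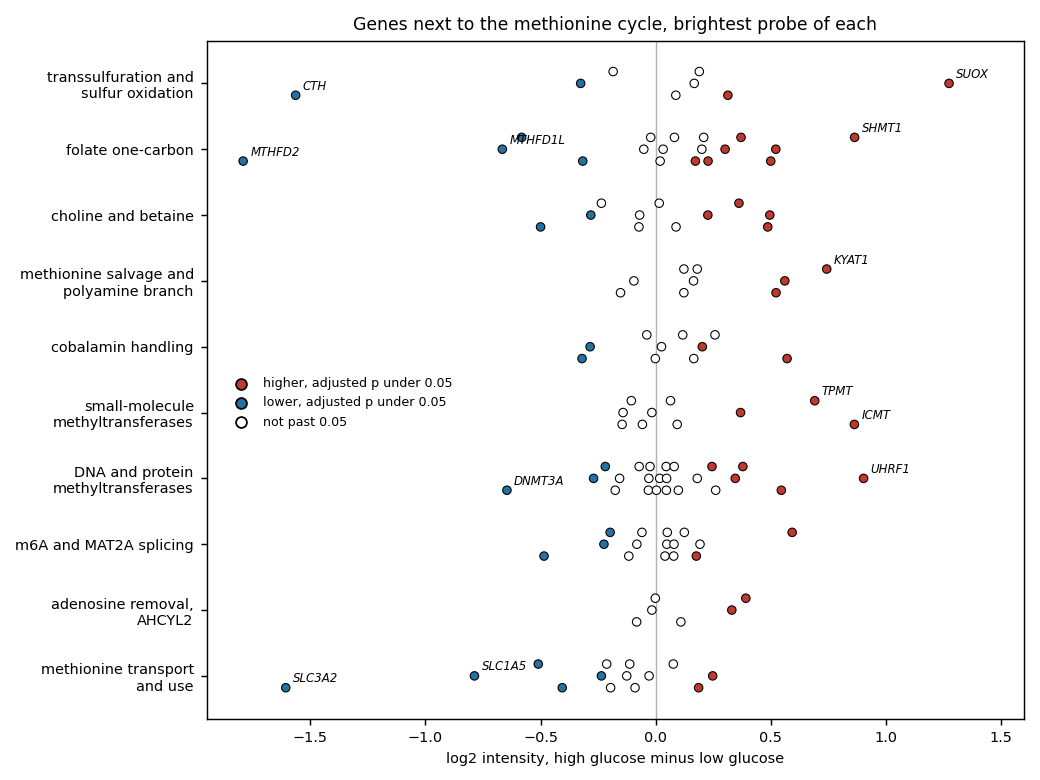
Difference in log2 intensity, high glucose minus low glucose (horizontal axis), of 124 genes in 10 lists around the methionine cycle, 1 point per gene from its brightest probe, red where higher and blue where lower at an adjusted p under 0.05 from limma. MTHFD2 (-1.79), SLC3A2 (-1.61) and CTH (-1.56) lie furthest left and SUOX (1.27) furthest right, whereas most of the 124 genes lie near 0.

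Choline and betaine genes, which supply the methyl group used by BHMT, had 4 of 11 higher and 2 lower (median log2 difference 0.02). Among bright genes at large, 24.1% were higher and 19.0% lower. BHMT2, a close relative of BHMT, ranged from 695 to 836 in high glucose (median 802) and from 1017 to 1232 in low glucose (median 1100.5), a log2 difference of -0.50 (adjusted p = 2.5e-06 from limma). Its other, dimmer probe did not differ detectably (95% interval -0.17 to 0.17, adjusted p = 1 from limma). CHDH, the choline dehydrogenase that makes the betaine precursor, had a log2 difference of 0.50 (adjusted p = 8.1e-05 from limma). CHKA, the choline kinase that leads choline to phospholipids instead, had one of 0.49 (adjusted p = 9.3e-07), and the betaine carrier gene SLC6A12 one of 0.36 (adjusted p = 0.0047). When the 5 CHKA probes were averaged, 3 of them dim, the difference of CHKA was 0.10 and did not pass the test.

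Genes that process cobalamin, the cofactor of MTR, had 2 of 10 higher and 2 lower (median log2 difference 0.07). Beside them, 24.1% of bright genes at large were higher and 19.0% lower. MMACHC, which prepares cobalamin for use, had a log2 difference of 0.57 (adjusted p = 1.2e-07 from limma), and CD320, the receptor for its uptake, one of 0.20 (adjusted p = 0.011). LMBRD1, which exports it from lysosomes, had one of -0.29 (adjusted p = 0.0014 from limma). MMUT, the other enzyme that depends on cobalamin, had one of -0.32 (adjusted p = 0.0015 from limma). A dim MMUT probe did not differ detectably (95% interval -0.17 to 0.17).

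The genes whose products spend S-adenosylmethionine were counted beside 15.4% of all genes higher and 12.2% lower. Most were bright, with 9 of 10 and 22 of 23 genes of the following 2 lists over 100 on at least 6 arrays. Among genes of such brightness the shares were 24.1% higher and 19.0% lower. Among 10 measured methyltransferases, most of them acting on small molecules or lipids, 3 were higher and none lower (median log2 difference 0.02). These were ICMT, which methylates prenylated proteins (log2 difference 0.86, adjusted p = 1.1e-09 from limma), TPMT, which methylates thiopurines (0.69, adjusted p = 1.6e-09), and COQ3 of ubiquinone synthesis (0.37, adjusted p = 0.00019). Of 23 genes of DNA and protein methylation, 5 were higher and 3 lower (median log2 difference 0.05). DNMT1, the maintenance DNA methyltransferase, did not pass the test (log2 difference -0.07, 95% interval -0.18 to 0.03, adjusted p = 0.45 from limma). Its partner UHRF1, itself no methyltransferase, had a log2 difference of 0.90 (adjusted p = 8.6e-13 from limma). The protein methyltransferase genes PRMT6 and SUV39H1 had differences of 0.55 (adjusted p = 2.2e-06) and 0.38 (adjusted p = 1.6e-05). A second PRMT6 probe had a difference of 0.75 and a dim one of 0.04. DNMT3A, a DNA methyltransferase of new sites, had a log2 difference of -0.65 (adjusted p = 0.0011 from limma). Its high-glucose arrays ranged from 141 to 158 and its low-glucose arrays widely, from 149.7 to 402. The 2 further DNMT3A probes, of low intensity, did not pass and went in opposite directions. Their differences were -0.12 (adjusted p = 0.45 from limma) and 0.11 (adjusted p = 0.62 from limma).

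The mRNAs of METTL16 and other genes of mRNA methylation or MAT2A splicing showed no difference of a size like that of MAT2A. The activity of their products was not measured, and their part in the MAT2A rise was not tested. METTL16, which methylates the MAT2A transcript, ranged from 205 to 263 in high glucose (median 243) and from 204 to 236 in low glucose (median 222), with a log2 difference of 0.12 (95% interval -0.03 to 0.28, adjusted p = 0.37 from limma). YTHDC1, a nuclear reader of methylated adenosine, had a log2 difference of 0.04 by its brightest probe (95% interval -0.07 to 0.15, adjusted p = 0.76 from limma), whereas a dim probe had -0.33 (adjusted p = 0.0032). NUDT21, a cleavage factor that takes part in the splicing of the retained MAT2A intron, had one of -0.12 (95% interval -0.27 to 0.03, adjusted p = 0.38 from limma). METTL3, the catalytic subunit of the main adenosine methyltransferase of mRNA, ranged from 2225 to 2699 in high glucose (median 2552) and from 1485 to 2046 in low glucose (median 1587). Its groups did not overlap (log2 difference 0.59, adjusted p = 5.8e-07 from limma). CBLL1, a further subunit of that complex, had a log2 difference of -0.49 (adjusted p = 1.4e-06 from limma), while its dimmer probe did not pass (-0.24, adjusted p = 0.10). RBM15 (-0.23, adjusted p = 0.045) and ZC3H13 (-0.20, adjusted p = 0.038, below an intensity of 100) passed narrowly, and both calls were lost without several single arrays. In all, 2 of the 15 measured genes of this list were higher and 3 lower (median log2 difference 0.05). The shares among bright genes at large were 24.1% and 19.0%.

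Of 6 genes that make, carry or clear adenosine or resemble AHCY, 2 were higher, NT5E (log2 difference 0.39, adjusted p = 0.00032 from limma), which makes adenosine outside the cell, and the nucleoside carrier gene SLC29A2 (0.33, adjusted p = 0.0032). AHCYL2, the closest relative of AHCYL1, did not pass (0.11, 95% interval -0.06 to 0.28, adjusted p = 0.50 from limma). Genes that bring methionine into the cell or use it had 2 of 14 higher and 5 lower (median log2 difference -0.16). For both lists, the shares of bright genes at large to set beside them were 24.1% higher and 19.0% lower. SLC3A2, the heavy chain shared by several amino acid exchangers, ranged from 2533 to 2945 in high glucose (median 2766) and from 7486 to 9331 in low glucose (median 8389). Its log2 difference was -1.61 (adjusted p = 2.3e-16 from limma). A second, dimmer SLC3A2 probe ranged from 596 to 716 in high glucose (median 661) and from 3472 to 4800.2 in low glucose (median 4103), a log2 difference of -2.63 (adjusted p = 7.9e-19 from limma), larger in size than that of MAT2A. SLC1A5, a carrier of neutral amino acids, had a log2 difference of -0.79 (adjusted p = 2.4e-08 from limma), MARS1, the methionyl-tRNA synthetase, one of -0.51 (adjusted p = 1.4e-06) and SLC38A1 one of -0.41 (adjusted p = 3.2e-05), with -0.69 by a second SLC38A1 probe. SLC25A26, which carries S-adenosylmethionine into mitochondria, lay at the threshold by its brightest probe (-0.21, 95% interval -0.37 to -0.06, adjusted p = 0.051 from limma), while its second probe passed (-0.20, adjusted p = 0.038) and a dim one did not.

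**Figure D4:**
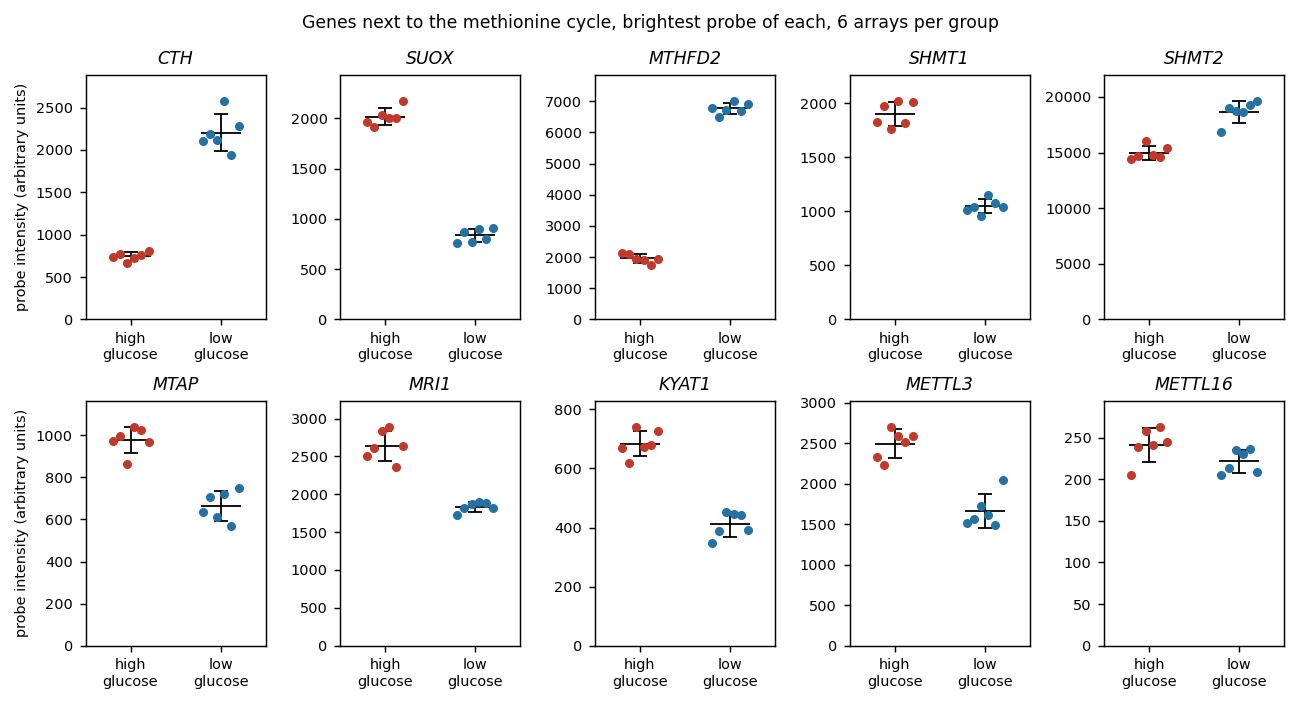
Probe intensity (vertical axes, arbitrary units, linear from 0, a scale of its own in each panel) of 10 genes next to the methionine cycle, chosen for their role or their difference, for the 6 high-glucose arrays (left) and the 6 low-glucose arrays (right), with the mean and SD as bars. CTH, MTHFD2 and SHMT2 lie lower and SUOX, SHMT1, MTAP, MRI1, KYAT1 and METTL3 higher in high glucose with no overlap, and METTL16 overlaps.

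The probes whose log2 values followed MAT2A most closely over the 12 arrays belonged to AP1S1, a subunit of a clathrin adaptor (Pearson r 0.997), NSDHL of cholesterol synthesis (0.995), the proteasome activator gene PSME3 (0.995), the peroxisomal membrane gene PXMP2 (0.994) and LRRC20 (0.993). Their differences were 0.93, 0.79, 0.98, 1.01 and 0.96 on the log2 scale. With 2 separate groups this measure is set mainly by the difference between them, and 1271 probes exceeded r = 0.9. With the group means removed, 12 probes did so, led by those of the splicing factor gene SF3A3 (0.942), E2F6 (0.932), CDK2AP2 (0.922), TMEM165 (0.917) and JHY (0.911). The JHY probe was dim, with means of 74.2 in high glucose and 80.1 in low glucose. Of the members, CBS had the highest value in this second measure (0.634), and MAT1A (0.010), MAT2B (0.048) and AHCY (-0.356) were far lower. Low-glucose replicate 5 was the lowest array of its group for both MAT2A and CBS, and without it, a choice made after seeing the data, r was 0.253 for CBS, below 0.389 for MTRR, and 0.725 for SF3A3, 0.866 for E2F6, 0.684 for CDK2AP2, 0.872 for TMEM165 and 0.811 for JHY. These are descriptions over arrays that share a platform and a normalization.

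Liver identity was checked on the same arrays. All 9 measured hepatocyte marker genes were bright, with mean intensities from 2682 to 27903, and their summed intensity ranged from 124217 to 140840.0 in high glucose and from 123208 to 133549 in low glucose. Among them FGB was higher in high glucose (log2 difference 0.53, adjusted p = 1.8e-07 from limma), APOB was lower (-0.22, adjusted p = 0.0079), and the other 7 did not pass. Of 10 markers of other liver and blood cells, 6 had means under 100, among them PTPRC, CDH5, COL1A1 and STAB2. The others were LYZ (means 12524 in high and 10801 in low glucose), ACTA2 (7405 and 5011), CD68 (4988 and 5564) and PECAM1 (208 and 209). LYZ, ACTA2 and CD68 were brighter than the hepatocyte markers FGB and TTR, so these markers do not all separate by level. In high glucose 2 of the 10 were higher, LYZ (log2 difference 0.22) and ACTA2 (0.56), and the other 8 did not pass. The summed intensity of those 10 ranged from 24292 to 26665 in high glucose and from 19931 to 24271 in low glucose, and its part in the results was not tested. Across probes, Pearson r was 0.985 to 0.988 between a high-glucose and a low-glucose array, and 0.992 to 0.995 for pairs within a group.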

How the data were processed

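RNA of 12 HepG2 cultures, 6 biological replicates per group by the methods, was hybridised to Illumina HumanHT-12 BeadChips. The authors deposited linear probe intensities, which the methods say were normalized with limma. The submitters' notes list GenomeStudio 2010.1. How background was corrected or probes were filtered was not stated in the methods or labels. Sorted values of the arrays differed by at most 0.825, as after quantile normalization, and no intensity was under 47.2. Such a floor does not show whether background was subtracted. If it was not, folds of dim genes are understated. Another table was not used: none of its 24 columns of sample values could be matched to a label. Which cultures shared a passage or day is not given, so p-values measure the spread between these cultures only.

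All 48803 probes were tested on log2 intensities with lmFit and eBayes (trend on) of limma 3.58.1, under R 4.3.3 and with no replicate block. P-values were two-sided and adjusted by Benjamini-Hochberg over all probes, with a threshold of 0.05. Differences are high minus low glucose, on the log2 scale. Symbols come from the platform annotation (28098 probes with 1 gene, 13 with several, 20692 with none), and sequences from RefSeq windows of GRCh38.p14, matched by symbol for 9 of 10 members. A gene was read from its brightest probe, all probes being given for the members. The arrays' number limits precision (log2 SD within a group 0.125 for the median probe). The fit was tested on simulated data.

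The members, the 10 lists and the tests were chosen with earlier results of these data known. Named were every member, up to 4 passing genes per list with the largest difference, genes next to the members by role, and the 5 probes most like MAT2A by each of 2 correlations. Alternatives were log2(signal + 16), a CyberT style test (prior weight 10, window 101), array weights, replicate numbers as a block, a filter (over 100 on at least 6 arrays), normexp with offset 16, cyclic loess, named probes only, the mean of a gene's probes, an adjusted p under 0.01 and each array left out. Analyses used Python 3.11.15 and matplotlib 3.10.9.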

Additional observations from a re-analysis of the deposited data

Results flagged for a closer look

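Among 116 sets of 6 arrays (the member probes and the named genes, in each group), 6 held an array far from the other 5 of its group, where chance flags about 1 in 20. None was a methionine cycle probe. In high glucose, replicate 3 was lowest for MTAP at 864 (next 969.7) and for LMBRD1 at 1185 (next 1321), and highest for MPST at 2015 (next 1681). In low glucose, replicate 1 was lowest for SHMT2 at 16800 (next 18671) and highest for CBLL1 at 2269 (next 2022), and replicate 5 was highest for RBM15 at 2406 (next 1992).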

How the results depend on the processing

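Most results kept their direction and their side of the threshold. The MAT2A difference stayed between 2.55 and 2.60 on the log2 scale over the alternatives that kept all arrays and between 2.48 and 2.62 with each array left out. The count of other members lower in high glucose was 3 in every alternative but the mean of all probes of a gene, where it was 4. The count of members higher rested on MAT1A: it was 0 with the CyberT style test, with cyclic loess and at an adjusted p under 0.01, 2 with the mean of all probes of a gene, and 0 to 1 with each array left out. With the mean of all probes MAT2B turned to 0.20 and YTHDC1 to -0.13. The MTRR difference ranged from -0.099 to 0.001 with each array left out, turning without low-glucose replicate 6. With each array left out, probes higher ranged from 3983 to 4189 and probes lower from 3375 to 3596, against 4278 and 3626 with all arrays. List genes higher then ranged from 28 to 34 and lower from 18 to 23. The replicate number as a block, by limma, left 1 member higher and 3 lower and called 4187 probes higher and 3573 lower. Same-numbered arrays of the groups did not deviate together (r = -0.056 to 0.016), so the numbers were not taken as pairs. Dim probes such as that of GNMT limit what could be detected.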
